A study of Mus musculus with 24 samples.

Results

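Prostaglandins are made from arachidonic acid, and this account follows 10 genes of that pathway in Ku70-/- mouse embryonic fibroblasts (MEFs) exposed to potassium bromate (KBrO3), bisphenol A (BPA) or both. The genes are the cyclooxygenases Ptgs1 and Ptgs2, the prostanoid synthases Ptges, Ptgis and Ptgds, the prostaglandin dehydrogenase Hpgd and the prostaglandin E2 receptors Ptger1, Ptger2, Ptger3 and Ptger4. They were found on the array by gene name, which gave 16 probes of 41174. The list was selected on measured values, namely the differences between treated and untreated arrays, so those differences are given here as a description with no test. For these genes tests are given only between treated groups, and they share the treated arrays with the described values.

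Expression was read on 24 Agilent arrays, each of 1 RNA sample, with 3 biological replicates in each of 8 groups. All groups, untreated included, were immortalized MEFs with a deletion of Ku70 (Xrcc6), a subunit of the end-joining DNA repair complex, so no comparison bears on the deletion itself. In 15 arrays, called the KBrO3 set, untreated cells were measured beside cells given 20 mM KBrO3 for 1 hr and left in fresh medium for a further 3 or 23 hr. The same set held co-exposed cells, which received 150 µM BPA for 1 hr, BPA with 20 mM KBrO3 for 1 hr, and then BPA alone to the same time points. In 9 further arrays, called the BPA set, untreated cells were measured beside cells kept in 150 µM BPA for 4 or 24 hr according to the sample labels and their treatment protocol (5 and 25 hr in the published methods). Time points are written below as 4 and 24 hr. The untreated arrays of the KBrO3 set carry the 4 hr time in their labels, and no untreated array was labelled 24 hr. Differences from untreated at 24 hr, and changes from 4 to 24 hr within a treatment, therefore cannot be told apart from time in culture. After KBrO3 alone the 4 and 24 hr arrays also shared no slide, so slide and time cannot be told apart there.

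KBrO3 is an oxidant that damages bases in DNA, and BPA is a building block of polycarbonate plastics. Cyclooxygenase turns arachidonic acid into prostaglandin H2, and terminal synthases turn that into prostaglandin E2 (Ptges), prostacyclin (Ptgis) or prostaglandin D2 (Ptgds). Prostaglandin E2 signals through 4 receptors, and 15-hydroxyprostaglandin dehydrogenase (Hpgd) starts its breakdown. Fibroblasts are a known source of prostaglandin E2, and Ptgs2 is known as an early response gene.

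Levels are log2 signals minus the array's own 75th percentile, so a level of 0 marks a probe as bright as that percentile and a difference of 1 is 2-fold. Levels are compared only within a probe and within a set. Between 57.7% and 68.1% of spots were well above background on the arrays of the KBrO3 set, and between 76.4% and 79.4% in the BPA set. A probe was tested where it was well above background on all arrays of at least 1 group, which left 27310 and 31806 probes in the KBrO3 and BPA sets. In each set 11 of the 16 probes of these genes passed. The 5 others were 1 of 3 Hpgd probes, all 3 Ptger3 probes and 1 of 2 Ptger4 probes. The median residual SD over 27180 probes tested in both sets was 0.106 log2 units in the KBrO3 set and 0.318 in the BPA set, so a given difference was measured less precisely in the BPA set. Of 8 fibroblast markers, 7 were well above background on all 24 arrays, with Thy1 on 10 of 15 arrays of the KBrO3 set. Of 13 leukocyte, epithelial and endothelial markers, Cd3e, Krt14, Krt5 and Tek were above it on all arrays of both sets, and Csf1r on 10 of 15 and 9 of 9. In the BPA set Cldn5 (9 of 9), Cdh1 and Cdh5 (8 of 9 each), Itgam (7 of 9), Adgre1 (6 of 9) and Epcam (2 of 9) were also above it, each on at most 4 of 15 arrays of the KBrO3 set. Ptprc and Pecam1 were above it on no array. In the KBrO3 set the log2 of the summed fibroblast markers lay between 9.97 and 10.08 in untreated cells. At 4 hr it lay between 9.88 and 9.96 after KBrO3 alone and between 9.55 and 9.61 under co-exposure. At 24 hr it lay between 8.79 and 8.94 after KBrO3 alone and between 8.36 and 8.56 under co-exposure. The part of this sum in the results below was not tested. The endothelial sum lay between -3.34 and -2.96 in untreated cells, between -2.67 and -2.34 at 4 hr of co-exposure and between -4.13 and -3.84 at 24 hr of co-exposure. The leukocyte sum was -3.15 to -2.41 untreated, -2.23 to -1.88 at 4 hr after KBrO3 alone and -2.22 to -2.14 at 4 hr of co-exposure. The epithelial sum in these groups was -2.87 to -2.29, -2.21 to -1.83 and -2.01 to -1.89. The part of these sums was likewise not tested. In such bulk samples fewer cells of a type and less RNA per cell cannot be told apart.

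A call below means an adjusted p below 0.05 with a change beyond 1.5-fold. For a probe below background throughout 1 group the fold is given as a bound (at least N-fold), while the call and its p test the signals. Such a bound can lie under 1.5-fold. Several genes were read by more than 1 probe. The 60-base probes of Ptgs2 and Hpgd carry most of the account, and the 30 bases at the 5′ end of each are shown because the paired probes did not always give the same value. The Ptgs2 probes start 328 bases apart on chromosome 1, and the Hpgd probes 1 and 2 start 359 bases apart on chromosome 8 (mouse build mm7, as in the array files).
Ptgs2 multi-spot probe, chr1:150033228-150033287, plus strand: tttttgaaaagtttgaagttagaacttagg
Ptgs2 single-spot probe, chr1:150032900-150032959, plus strand: ctgaagaattgctttcttacttaaaaacaa
Hpgd probe 1, chr8:54721339-54721398, plus strand: aagctcctttacaatggaaatatttagtaa
Hpgd probe 2, chr8:54720980-54721039, plus strand: ctcagactgcatctttactagtgtagcttt

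Ptgs2, the inducible cyclooxygenase, had the widest range of these genes in the KBrO3 set. On the multi-spot probe its level was -1.33, -1.24 and -1.42 on the untreated arrays, 4.73, 4.73 and 4.80 at 4 hr after KBrO3 alone, and 4.79, 4.59 and 4.80 at 4 hr of co-exposure. At 24 hr the levels were -0.37, -0.26 and -0.26 after KBrO3 alone and -0.31, -0.23 and -0.27 under co-exposure. The treated groups lay above the untreated arrays without overlap at both times, and the KBrO3 and co-exposed groups overlapped each other. In order of mean level, untreated cells (-1.33 ± 0.09, SD, n = 3) came first, then KBrO3 alone and co-exposure at 24 hr, then co-exposure and KBrO3 alone at 4 hr, and within each of these pairs the neighbours did not differ beyond their spread. The described difference from untreated at 4 hr was 6.08 ± 0.06 (SE), or 67.7-fold, for KBrO3 alone and 6.06 ± 0.06, or 66.6-fold, for co-exposure. At 24 hr it was 1.03 ± 0.06 and 1.05 ± 0.06.

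Within the treated cells, Ptgs2 fell between 4 and 24 hr. After KBrO3 alone the multi-spot probe fell by 5.05 ± 0.06 or 33.1-fold (adjusted p = 4e-14) and under co-exposure it fell 32-fold (adjusted p = 2.58e-14), in 3 of 3 arrays each. The median change over all tested probes in these comparisons was -0.12 and -0.22. No difference between co-exposure and KBrO3 alone was called on this probe: it was -0.02 (95% interval -0.16 to 0.11) at 4 hr and 0.02 (-0.12 to 0.16) at 24 hr. The change of that difference over time was also not called (0.05, adjusted p = 0.682).

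The single-spot Ptgs2 probe gave the same directions against untreated cells but not the same comparison of the treatments. Its levels were -1.94, -1.83 and -1.95 in untreated cells, 4.00, 4.03 and 4.10 at 4 hr after KBrO3 alone, and 4.83, 4.64 and 4.84 under co-exposure. The co-exposed arrays were all above those of KBrO3 alone, a rise of 0.73 ± 0.12 or 1.65-fold (adjusted p = 0.00024). At 24 hr the levels were -0.64, -0.55 and -0.75 against -1.05, -1.04 and -0.56, which overlap, and the difference of -0.24 was not called (adjusted p = 0.109). Neither probe was saturated on any array. The multi-spot probe was printed on 10 spots, whose SD within an array was at most 0.07 in the KBrO3 set and 0.15 in the BPA set. Which of the probes is nearer the transcript's level was not tested. The co-exposed and KBrO3 arrays at 4 hr also lay on different slides, so slide and co-exposure cannot be told apart at that time. With slide as a random block the difference was 0.76 (adjusted p = 0.00484), but it was not called after scaling to the array median (0.58) or after normexp background correction (0.74, adjusted p = 0.064).

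With BPA alone Ptgs2 was also higher than in untreated cells at 4 hr. On the multi-spot probe the untreated arrays of the BPA set were at -2.69, -2.76 and -3.12, the 4 hr arrays at -0.01, 0.26 and 0.00, and the 24 hr arrays at -1.76, -2.76 and -2.84. All 4 hr arrays lay above the untreated ones, by 2.94 ± 0.30 or 7.66-fold, while the 24 hr arrays overlapped them. The single-spot probe was higher by 3.15 ± 0.28 at 4 hr. At 24 hr its arrays were at -1.89, -2.61 and -3.04 against -3.09, -3.22 and -3.45 untreated, so they lay above the untreated ones on this probe, by 0.74 (95% interval 0.11 to 1.37). The 4 hr differences were 2.69 and 2.97 on the only slide that held both groups (2 arrays against 1). On the 2 slides that held 24 hr and untreated arrays (1 against 1) the 24 hr differences were 0.99 and 0.35 on the multi-spot probe and 1.33 and 0.84 on the single-spot probe. From 4 to 24 hr Ptgs2 fell by 2.54 ± 0.30 (adjusted p = 0.00311) and by 2.41 ± 0.28 (adjusted p = 0.00308) on the multi-spot and single-spot probes, in 3 of 3 arrays. Neither Ptgs2 fall was called with slide as a fixed block (-2.01 and -1.89, adjusted p = 0.37 for both) or after normexp (-2.22 and -2.13).

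**Figure D1:**
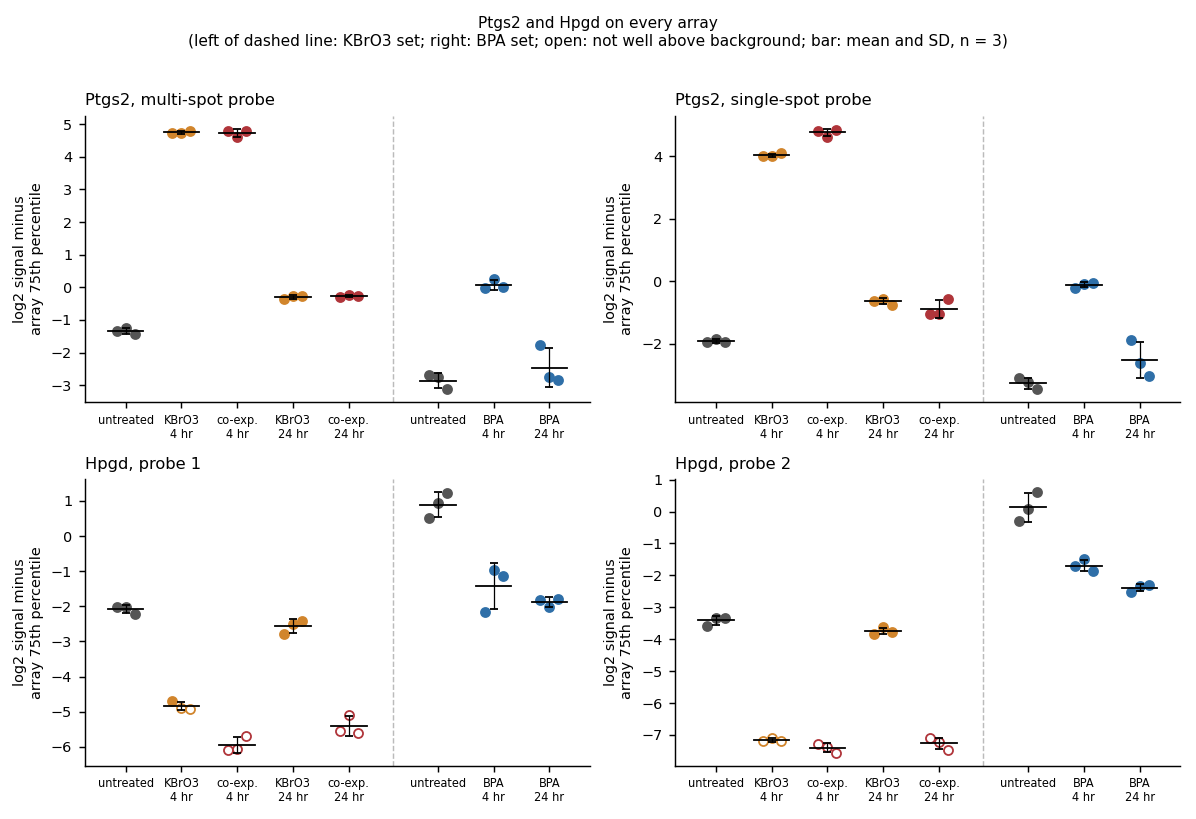
Level of Ptgs2 and Hpgd on each of 24 arrays, as log2 signal minus the array's 75th percentile, by group; points are arrays, open where the probe was not well above background, and bars give the mean and SD of 3 arrays. In the KBrO3 set Ptgs2 was between 4.00 and 4.84 at 4 hr with or without BPA, and Hpgd was nearer the untreated level at 24 hr after KBrO3 alone than under co-exposure.

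Hpgd, the enzyme that inactivates prostaglandins, was lower in treated cells, and at 24 hr it was lower under co-exposure than after KBrO3 alone on both probes. Probe 1 was at -2.02, -2.01 and -2.21 on the untreated arrays, at -4.70, -4.90 and -4.91 at 4 hr after KBrO3 alone, and at -6.09, -6.06 and -5.69 at 4 hr of co-exposure. It was well above background on all untreated arrays, on 1 of 3 at 4 hr of KBrO3 alone and on 0 of 3 co-exposed arrays, where Hpgd was at least 10.3-fold below untreated. At 24 hr the arrays of KBrO3 alone were at -2.78, -2.51 and -2.41, all above background and 0.48 ± 0.15 below untreated. The co-exposed arrays at 24 hr were at -5.55, -5.08 and -5.61, still not well above background, so Hpgd was at least 9.04-fold lower than in untreated cells. Probe 2 showed the same order, with untreated arrays at -3.58, -3.32 and -3.33 and no array above background at 4 hr of either treatment or at 24 hr of co-exposure. Its arrays at 24 hr after KBrO3 alone were at -3.83, -3.63 and -3.78.

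After KBrO3 alone, Hpgd rose between 4 and 24 hr, in groups that shared no slide. Probe 1 rose by 2.27 ± 0.15 or 4.84-fold (adjusted p = 4.02e-08) from a 4 hr group above background on 1 of 3 arrays, and probe 2 rose at least 2.6-fold (adjusted p = 3.65e-11), in 3 of 3 arrays. Under co-exposure neither probe was above background at either time, so no change between the times is given. At 24 hr Hpgd was at least 6.46-fold lower under co-exposure than after KBrO3 alone on probe 1 (adjusted p = 3.81e-08) and at least 2.85-fold lower on probe 2 (adjusted p = 4.41e-10). Within the slide that held 2 arrays of each group the signals differed by -2.85 and -3.46, the co-exposed ones not above background. At 4 hr probe 1 was at least 1.52-fold lower under co-exposure (adjusted p = 8.47e-05) than in that same group with 1 of 3 arrays above background, and probe 2 was below background in both groups. Whether the co-exposure difference changed between 4 and 24 hr cannot be measured, since the co-exposed level has only an upper bound at both times. After normexp, the 24 hr difference between treatments stayed called on probe 1 of Hpgd (-1.30, adjusted p = 0.0124) and not on probe 2 (-0.90). The rise after KBrO3 alone was likewise called on probe 1 (0.86) and not on probe 2 (0.41), and the 4 hr difference of probe 1 was not (-0.21).

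In the BPA set Hpgd probes 1 and 2 were above background on all 9 arrays. Probe 1 was at 0.52, 0.93 and 1.22 in untreated cells, at -2.16, -0.96 and -1.14 at 4 hr of BPA, and at -1.81, -2.03 and -1.78 at 24 hr. All BPA arrays lay below all untreated arrays, with a mean difference on probe 1 of -2.31 ± 0.32 at 4 hr and -2.77 ± 0.32 at 24 hr. Probe 2 was at -0.31, 0.08 and 0.60 untreated, at -1.71, -1.50 and -1.86 at 4 hr and at -2.51, -2.33 and -2.29 at 24 hr. Its mean differences were -1.82 ± 0.25 (3.52-fold lower) and -2.50 ± 0.25 (5.67-fold lower). Within slides that held both groups, the 24 hr difference on probe 1 was -2.74 and -3.26. The 24 hr level was not called different from the 4 hr level on probe 1 (-0.45, 95% interval -1.18 to 0.28) or probe 2 (-0.69, -1.24 to -0.13, adjusted p = 0.163). Hpgd probe 3, which starts 6136 bases from probe 2, was above background on none of 24 arrays and ranged from -8.11 to -7.29 in the KBrO3 set and from -9.86 to -9.33 in the BPA set.

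Ptges, the inducible prostaglandin E synthase, was higher under co-exposure than after KBrO3 alone at both times. Its level was -0.50, -0.51 and -0.46 in untreated cells and -0.45, -0.45 and -0.48 at 4 hr after KBrO3 alone, which overlap, but 0.60, 0.66 and 0.58 under co-exposure. At 24 hr KBrO3 alone gave -1.35, -1.39 and -1.38 and co-exposure -0.63, -0.58 and -0.82. Co-exposed arrays were above those of KBrO3 alone in every case, by 1.07 ± 0.05 or 2.1-fold at 4 hr (adjusted p = 4.81e-08) and by 0.70 ± 0.05 or 1.62-fold at 24 hr (adjusted p = 8.48e-07). On the slide shared by both groups the 24 hr difference was 0.78. From 4 to 24 hr Ptges fell by 0.91 ± 0.05 after KBrO3 alone (adjusted p = 1.32e-08) and by 1.29 ± 0.05 under co-exposure (adjusted p = 4.74e-10). With BPA alone it was 0.91 ± 0.26 above untreated at 4 hr without overlap and 0.11 ± 0.26 above at 24 hr with overlap, and its fall between the times was not called (-0.80, adjusted p = 0.132).

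Ptgs1, the constitutive cyclooxygenase, ranged from 0.59 to 2.13 over the KBrO3 set. It was at 1.75, 1.59 and 1.53 in untreated cells, 2.13, 2.12 and 2.12 at 4 hr after KBrO3 alone and 1.59, 1.59 and 1.71 under co-exposure. At 24 hr the values were 1.07, 1.19 and 1.15 after KBrO3 alone and 0.71, 0.76 and 0.59 under co-exposure, below all untreated arrays. Co-exposed arrays were below those of KBrO3 alone at each time, with differences of -0.49 ± 0.06 early (adjusted p = 4.85e-05) and -0.45 ± 0.06 late (adjusted p = 0.000119), both under the 1.5-fold limit and so not called. After scaling to the array median the 4 hr difference was called (-0.64) and the fall of Ptgs1 under co-exposure was not (-0.48). Ptgs1 fell from 4 to 24 hr by 0.99 ± 0.06 after KBrO3 alone (adjusted p = 2.58e-08) and by 0.94 ± 0.06 under co-exposure (adjusted p = 3.57e-08). In the BPA set its untreated arrays spread from 1.75 to 2.70 and the 24 hr arrays from 0.99 to 2.13, and the 24 to 4 hr difference was 0.18 (95% interval -0.61 to 0.96).

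Ptgis, the prostacyclin synthase, was dim in the KBrO3 set. Its level was -4.12, -3.94 and -4.28 in untreated cells, and at 4 hr -3.78, -3.90 and -3.58 after KBrO3 alone and -4.21, -4.16 and -4.30 under co-exposure. At 24 hr it was -4.48, -4.67 and -5.23 after KBrO3 alone and -5.44, -5.49 and -5.60 under co-exposure, where it was no longer well above background. It fell from 4 to 24 hr by 1.04 ± 0.16 after KBrO3 alone (adjusted p = 8.21e-05) and at least 2.05-fold under co-exposure (adjusted p = 1.21e-05), neither called after normexp (-0.77 and -0.70). At 24 hr co-exposure was at least 1.38-fold below KBrO3 alone (adjusted p = 0.00317), but the signal difference of -0.72 was not called without replicate 1 of KBrO3 alone at 24 hr (-0.56), with slide as a block (-0.51) or under any of 3 other scalings (-0.55 to -0.17). On the arrays of the BPA set Ptgis was at -1.54, -1.60 and -2.46 untreated and -3.55, -4.18 and -2.89 at 24 hr of BPA, a difference of -1.67 ± 0.36 without overlap. The change of Ptgis from 4 to 24 hr of BPA was not called (-1.40, adjusted p = 0.066), except without replicate 3 of BPA at 24 hr (-1.72, adjusted p = 0.0404).

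Ptgds, the prostaglandin D2 synthase, was near the background limit in the KBrO3 set. It was at -5.05, -4.85 and -4.91 in untreated cells, below background on all arrays at 4 hr after KBrO3 alone, and at -3.57, -3.63 and -3.77 at 4 hr of co-exposure. Co-exposure was thus at least 2.68-fold above KBrO3 alone at 4 hr (adjusted p = 0.000608), and under co-exposure it fell at least 2.96-fold from 4 to 24 hr (adjusted p = 0.000249). Both Ptgds calls were lost with slide as a block, where the 4 hr difference was 1.08 and the change over time -0.19, and after normexp (0.55 and -0.96). At 24 hr Ptgds was above background on 2 of 3 arrays after KBrO3 alone and on 0 of 3 under co-exposure, where it was at least 1.41-fold lower with overlap and not called (adjusted p = 0.117). That difference was called without replicate 3 of KBrO3 alone at 24 hr (-0.85) and with error weights (-0.99), leaving out 1 array moved it between -0.85 and -0.17, and it was -0.02 on the slide shared by both groups. In the BPA set it lay between -4.01 and -3.42 on 9 of 9 arrays.

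**Figure D2:**
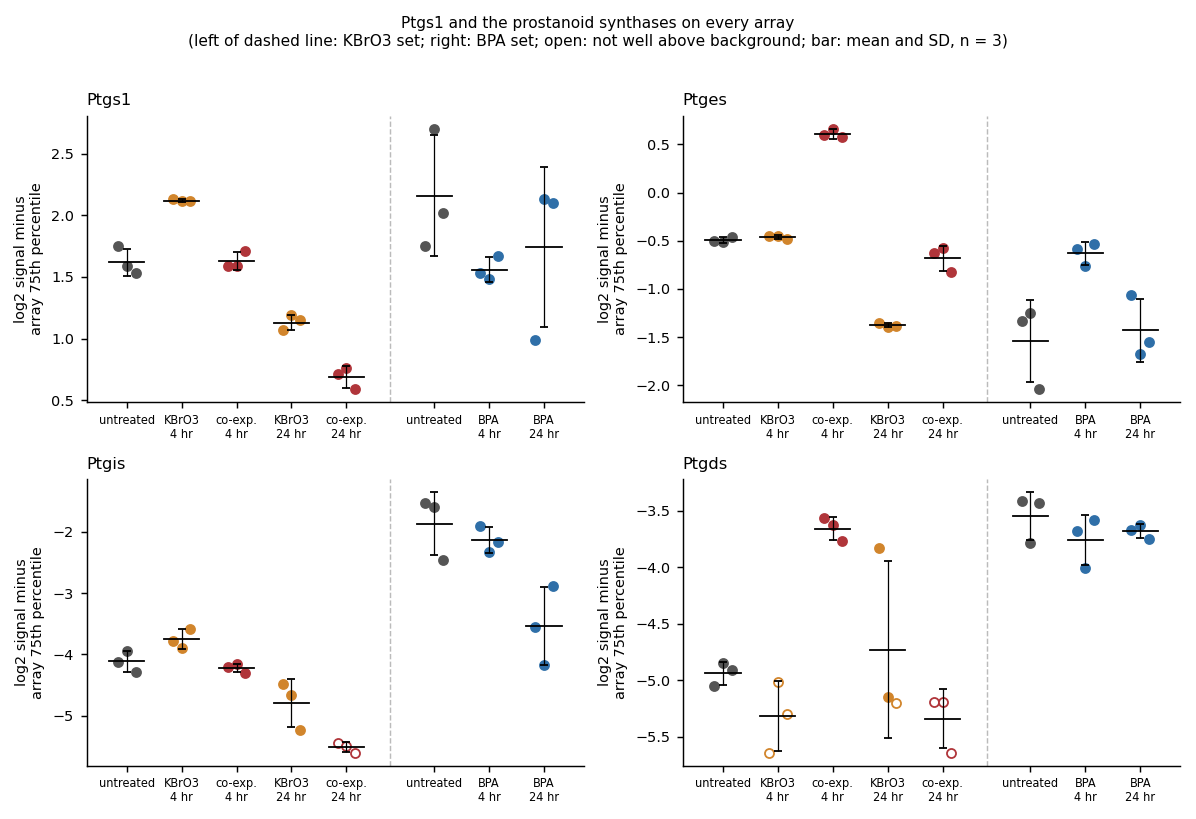
Level of Ptgs1 and the synthases Ptges, Ptgis and Ptgds on each of 24 arrays, as log2 signal minus the array's 75th percentile; points are arrays, open where not well above background, and bars give the mean and SD of 3 arrays. Ptges under co-exposure lay above KBrO3 alone at 4 hr (0.61 against -0.46 in the mean) and at 24 hr (-0.68 against -1.37).

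Among the receptors for prostaglandin E2, Ptger4, which couples to cyclic AMP, was below background on untreated arrays of the KBrO3 set and was measured at 4 hr of both treatments. Its probe 1 was at -6.00, -5.64 and -5.87 in untreated cells, at -2.57, -2.48 and -2.46 after KBrO3 alone, and at -3.16, -3.26 and -3.18 under co-exposure. The 4 hr level was thus at least 7.69-fold above untreated for KBrO3 alone and at least 4.75-fold above it for co-exposure. Ptger4 was lower under co-exposure than after KBrO3 alone at 4 hr by 0.69 ± 0.14 (adjusted p = 0.00138), which was no longer called with slide as a random block (-0.63) or after normexp (-0.36). By 24 hr it was at -5.08, -4.91 and -5.21 after KBrO3 alone and below background on all co-exposed arrays, a difference of -2.56 ± 0.14 after KBrO3 alone and at least 4.17-fold under co-exposure. Ptger4 was tested in this set only because it was high in both 4 hr groups, which favours a fall from them, so no p is given for these differences. At 24 hr co-exposure was at least 1.14-fold lower than KBrO3 alone (adjusted p = 7.25e-06), with signals that differed by -1.40 overall and -1.58 within the shared slide, but by -0.08 and not called after normexp. With BPA alone Ptger4 was at -5.40, -4.65 and -4.26 untreated and -3.64, -3.57 and -3.72 at 4 hr, which do not overlap, and its fall to 24 hr was not called (-1.23, adjusted p = 0.0756). Ptger4 probe 2 lies 27744 bases from probe 1 (build mm7) and was above background on none of 24 arrays (-7.73 to -6.69 and -9.82 to -8.03 by set).

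Ptger1, the calcium-coupled receptor, was lower in every treated group of the KBrO3 set. Its level was 0.39, 0.39 and 0.41 in untreated cells, -0.70, -0.60 and -0.68 at 4 hr and -1.51, -1.45 and -1.44 at 24 hr after KBrO3 alone. Under co-exposure it was -0.96, -0.94 and -0.96 at 4 hr and -2.19, -2.33 and -2.35 at 24 hr. The 5 groups did not overlap one another. From 4 to 24 hr Ptger1 fell by 0.80 ± 0.05 after KBrO3 alone (adjusted p = 8.44e-09) and by 1.34 ± 0.05 under co-exposure (adjusted p = 7.62e-11). Co-exposure was lower than KBrO3 alone by 0.83 ± 0.05 or 1.77-fold at 24 hr (adjusted p = 4.86e-08), and by 0.29 ± 0.05 at 4 hr (adjusted p = 0.000211), the latter under the fold limit. The change of this difference over time was -0.53 (adjusted p = 4.52e-05) and also under the limit. With BPA alone the 4 hr arrays overlapped the untreated ones, and Ptger1 fell from 4 to 24 hr by 0.91 ± 0.20 (adjusted p = 0.0386). That fall was not called when any 1 replicate at 4 hr, or replicate 1 or 2 at 24 hr, was left out, with values from -0.98 to -0.79. Also without a call were slide as a fixed block (-1.14), scaling to the array median (-0.80) and normexp (-0.87). The same held with no filter and with only the arrays compared (-0.91 in both).

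Ptger2, which couples to cyclic AMP like Ptger4, was near background and passed the filter only through the groups where it was highest. In the KBrO3 set it was well above background on 5 of 15 arrays, including all 3 at 4 hr of co-exposure (-4.12, -4.04 and -4.04), 1 untreated array (-4.50) and 1 at 4 hr after KBrO3 alone (-4.63). From 4 to 24 hr of co-exposure its level went down at least 2.29-fold, a value given with no p because the 4 hr group admitted the gene to the test. Between co-exposure and KBrO3 alone the 4 hr difference was not called (1.04, 95% interval -0.59 to 2.67) but was with error weights (0.92) or with only those arrays fitted, and the 4 hr group of co-exposure is again the one that admitted the gene. At 24 hr both groups were below background, so no difference is given. With BPA, Ptger2 was above background only at 4 hr of BPA (-6.99, -6.82 and -7.22), at least 1.25-fold above untreated. At 24 hr of BPA it was at least 1.44-fold lower than at 4 hr, for the same reason with no p. Ptger3, the inhibitory receptor, was read by 3 probes, none tested in either set. Its probe 1 was above background on none of 24 arrays (-8.05 to -6.06 and -8.98 to -7.45 by set), probe 2 on 1 array of each set and probe 3 on 2 arrays of each set, with no group holding more than 1 such array for a probe.

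**Figure D3:**
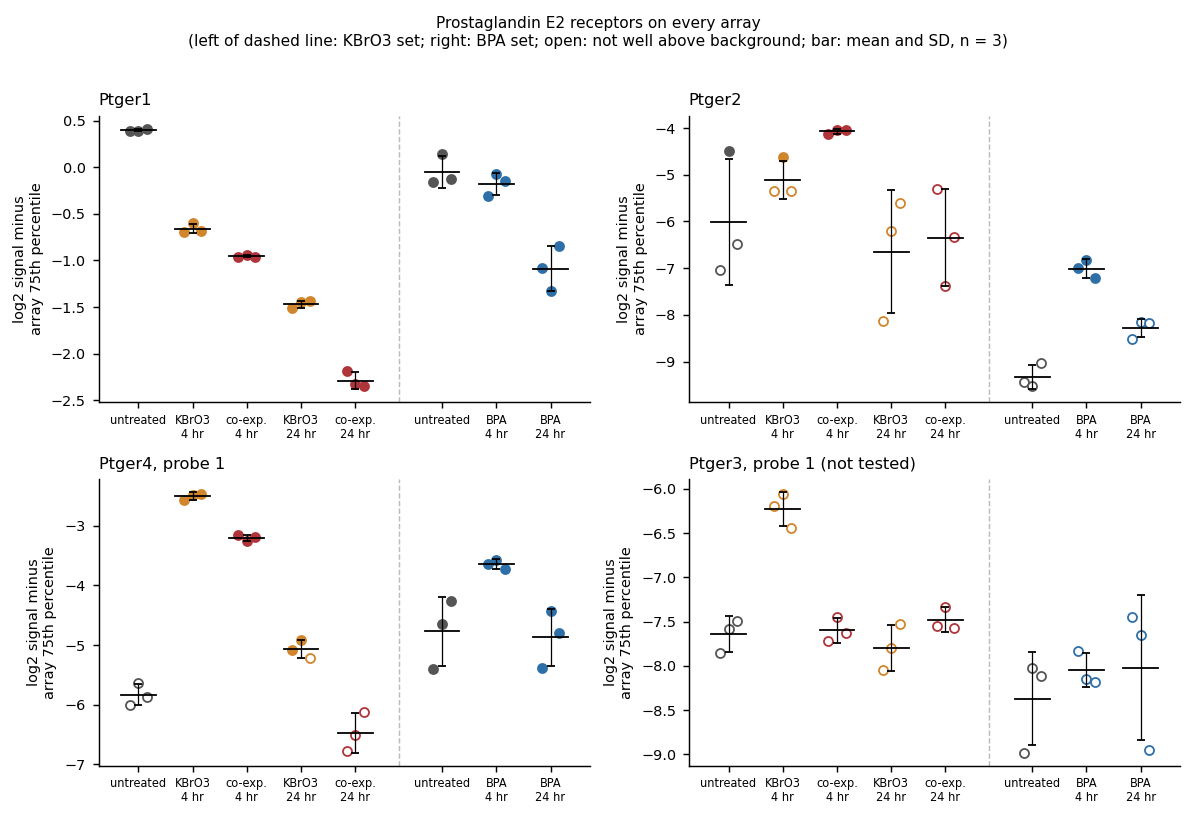
Level of the prostaglandin E2 receptors Ptger1, Ptger2, Ptger4 (probe 1) and Ptger3 (probe 1) on each of 24 arrays, as log2 signal minus the array's 75th percentile; points are arrays, open where not well above background, and bars give the mean and SD of 3 arrays. Ptger4 was above background at 4 hr of both KBrO3 treatments (means of -2.50 and -3.20), and Ptger1 was at 0.40 in untreated cells and -2.29 at 24 hr of co-exposure.

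Between co-exposure and KBrO3 alone at 4 hr, 3 of the 11 tested probes were called higher (Ptgs2 single-spot, Ptges, Ptgds) and 2 lower (Hpgd probe 1, Ptger4), where 11.9% and 8.21% of all tested probes were called. The split turned to 2 higher and 4 lower with the array median, and was 3 and 3 with quantile normalization and 1 and 0 with normexp. At 24 hr 1 was higher (Ptges) and 5 were lower (both Hpgd probes, Ptgis, Ptger1, Ptger4), against 5.35% and 8.23% of all tested probes. Of the 5 lower, all but Ptger1 were below background on all co-exposed arrays. The bounds of Ptgis (1.38-fold) and Ptger4 (1.14-fold) lay under the fold limit, so these calls rest on the signals alone. The median difference of the 11 probes was -0.23 at 4 hr and -0.61 at 24 hr, beside 0.02 and -0.04 over all tested probes. With probes below background in 1 group set at their bound, and the 1 probe below it in both groups left out, it was -0.15 and -0.46. For the change of this difference from 4 to 24 hr, 0 were called higher and 5 lower (both Hpgd probes, Ptgds, Ptger4 and the single-spot Ptgs2 probe), against 11.0% and 16.3% of all tested probes. At an unadjusted p under 0.05 limma gave 0 higher and 7 lower. Of the 5 lower, the single-spot Ptgs2 probe alone was above background on all arrays of the 4 groups, and the others rest on levels with only a bound. Of the 6 probes not called in that comparison, Ptges and Ptger1 had values of -0.38 and -0.53 under the fold limit.

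From 4 to 24 hr after KBrO3 alone, 2 of 11 probes were called higher (both of Hpgd) and 7 lower, where 19.9% and 27.9% of all tested probes were called. Under co-exposure 0 were called higher and 9 lower, where 20.6% and 35.0% were called. At an unadjusted p under 0.05 limma gave 1 higher (Hpgd probe 1, below background at both times) and 9 lower. These counts include Ptger4, and under co-exposure Ptger2, which the 4 hr groups admitted to the test. The 2 not called were both Hpgd probes under co-exposure, and Ptgds and Ptger2 after KBrO3 alone. The median change of the 11 was -0.99 after KBrO3 alone and -1.34 under co-exposure, or -0.91 and -1.34 with bounds as above. For BPA alone 0 were called higher and 4 lower (both Ptgs2 probes, Ptger1 and Ptger2, the last admitted by its 4 hr group), where 1.00% and 2.79% of all tested probes were called. At an unadjusted p under 0.05 limma gave 0 higher and 8 lower. The probes came from 9 genes and share them in part, so these counts are not counts of independent measurements.

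**Figure D4:**
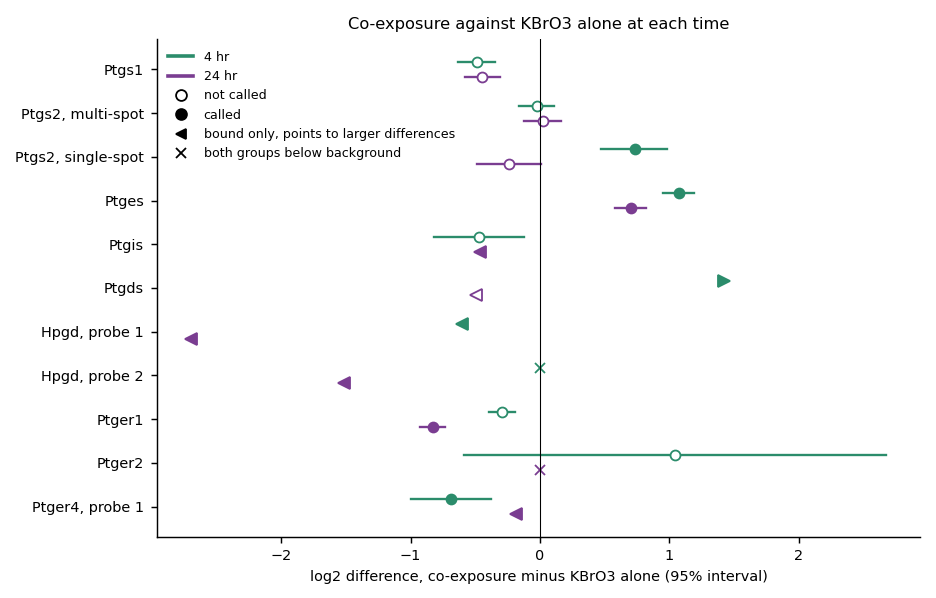
Log2 difference between co-exposure and KBrO3 alone at 4 hr and 24 hr for the 11 tested probes; circles are differences of 3 against 3 arrays with lines for their 95% intervals, triangles are bounds for probes below background throughout 1 group, crosses at 0 mark probes below it in both groups, and filled symbols are called. At 24 hr Hpgd was at least 6.46-fold and 2.85-fold lower on its probes, and Ptges was above 0 at both times (1.07 and 0.70). Calls rest on the signals, so a filled triangle can lie within the 1.5-fold limit.

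Against untreated cells the calls are counted for completeness, and nothing is read from them because the genes were chosen on these contrasts. At 4 hr after KBrO3 alone 3 of 11 tested probes were called higher and 3 lower, where 23.0% and 22.5% of all tested probes were called. At 4 hr of co-exposure 6 were higher and 3 lower, against 29.9% and 24.4%, with 3 and 3 after normexp and 4 and 3 with slide as a random block. At 24 hr the counts were 3 higher and 3 lower after KBrO3 alone, against 14.1% and 19.1%, and 2 higher and 6 lower under co-exposure, against 15.9% and 23.5%. After normexp the split at 24 hr was 1 higher and 8 lower in either case. At 4 hr of BPA alone 3 were higher and 2 lower, against 2.83% and 1.41%. At 24 hr of BPA alone 1 was higher and 4 were lower, against 1.39% and 2.02%. Those called include probes below background on all arrays of both groups, namely the 1 higher at 24 hr of BPA (Ptger2) and Ptger4 among the 6 lower at 24 hr of co-exposure. Both BPA counts were 0 after normexp (limma, with 5 and 4 at an unadjusted p under 0.05), with slide as a fixed block (7 and 7) and under Bonferroni (7 and 6). The 24 hr BPA count of 5 was 2 without untreated replicate 1, untreated replicate 2 or replicate 2 of BPA at 24 hr, and 3 without replicate 1 of BPA at 24 hr.

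Over the 15 arrays of the KBrO3 set, other genes with a pattern most like that of Ptgs2 were Eif3j1, Phlda1, Simc1, Zbtb11 and Taf1d, with a Pearson r between 0.998 and 0.999 to the multi-spot probe. For Hpgd probe 1 they were Asb1, Dkk2, Il17rb, Wnk4 and Lurap1l, with r from 0.976 to 0.988. These were the highest of 14552 named genes, and since the arrays fall into 5 groups the values describe the group pattern and carry no p. Among the members, Ptger4 probe 1 was most like Ptgs2 (r = 0.93) and Hpgd probe 1 had r = -0.70 to it.

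The 250 bases before the annotated start of Ptgs2, Ptger4 and Hpgd are shown because Ptgs2 and Ptger4 were high and Hpgd low in the same arrays at 4 hr. They come from RefSeq on build GRCm38.p6, which held a start for 8 of the 10 genes. Capitals mark matches, on either strand, to the GC box (GGGCGG) and the CCAAT box (CCAAT).
Ptgs2, chr1:150099781-150100030, plus strand: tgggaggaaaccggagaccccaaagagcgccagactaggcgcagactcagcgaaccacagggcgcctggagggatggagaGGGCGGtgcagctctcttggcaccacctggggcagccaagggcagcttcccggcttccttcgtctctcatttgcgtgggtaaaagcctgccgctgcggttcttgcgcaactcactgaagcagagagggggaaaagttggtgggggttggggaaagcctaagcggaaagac
Ptger4, chr15:5244188-5244437, minus strand: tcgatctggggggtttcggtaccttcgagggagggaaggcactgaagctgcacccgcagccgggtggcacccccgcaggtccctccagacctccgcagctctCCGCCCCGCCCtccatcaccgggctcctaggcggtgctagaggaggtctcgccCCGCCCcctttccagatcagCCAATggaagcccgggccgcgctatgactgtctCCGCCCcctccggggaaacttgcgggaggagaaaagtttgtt
Hpgd, chr8:56294302-56294551, plus strand: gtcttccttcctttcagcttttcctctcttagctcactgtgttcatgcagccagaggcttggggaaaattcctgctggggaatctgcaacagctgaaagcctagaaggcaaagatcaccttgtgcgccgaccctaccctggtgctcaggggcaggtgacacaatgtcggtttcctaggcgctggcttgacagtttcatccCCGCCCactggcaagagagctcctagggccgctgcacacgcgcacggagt
The GC box was found once before Ptgs2, 4 times before Ptger4 and once before Hpgd, and in 32.7% of all 32851 RefSeq windows of this length. Overlapping GC box matches are counted apart. CCAAT was found before Ptger4, and in 33.8% of all windows. Also searched were the TATA box (TATAAA, given strand only, in 7.59% of all windows), the E-box (CACGTG, 6.02%), the CRE core (TGACGT, 6.47%) and the AP-1 site (TGANTCA, 6.75%). The antioxidant response element core (TGACNNNGC, 10.2%) and a kappa-B-type site (17.6%) were searched as well, on both strands like the others. None of these was in the 3 windows, which says only that the letters are not there. Bases past the annotated start were not searched, so the windows do not show that a gene lacks such an element. These matches describe the windows and say nothing of binding.

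The other genes of the pathway were read by 58 probes of 35 genes in 5 lists, none of them among the 10 genes above. These lists were chosen with earlier results of these data known, and the genes named below were picked from those called. The adjusted p-values given for them therefore describe these arrays and are not independent tests. In the KBrO3 set 39 of the 58 probes were tested. After KBrO3 alone 8 were called higher and 7 lower at 4 hr, and 10 higher and 11 lower at 24 hr. Under co-exposure 14 were higher and 7 lower at 4 hr, and 14 higher and 8 lower at 24 hr. Of the higher calls, 2 at 24 hr after KBrO3 alone (Alox12, Alox5) and 2 at each time of co-exposure (Alox5, Ltb4r2) were of probes that treated groups, not the untreated one, admitted to the test. The same holds for 1 of the lower calls at 4 hr after KBrO3 alone (Alox12). That probe was above background on 0 of 3 arrays of this group and 1 of 3 untreated arrays. In the BPA set 45 were tested, with 3 higher and 3 lower at 4 hr and 4 higher and 4 lower at 24 hr, with no call in either comparison after normexp (limma, with 3 and 7 at an unadjusted p under 0.05). The shares of all tested probes called in these comparisons are those given above.

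Of 7 tested probes of genes that carry prostaglandins across the membrane or break them down further, 5 rose and 1 fell at 4 hr in KBrO3 alone and in co-exposure alike, with a list median of 1.10 and 1.13 beside 0.06 and 0.08 over all tested probes. At 24 hr 2 rose and 0 fell in each (limma, with 3 and 2 after KBrO3 alone and 4 and 1 under co-exposure at an unadjusted p under 0.05). Slco2a1, the prostaglandin transporter, rose at 4 hr by 1.52 ± 0.09 and 1.22 ± 0.04 on its probes after KBrO3 alone (adjusted p = 1.03e-08 and 1.3e-10). Under co-exposure Slco2a1 rose 3.17-fold and 2.84-fold at 4 hr (adjusted p = 3.59e-09 and 1.64e-11). At 4 hr of BPA alone it rose by 0.94 ± 0.20 on 1 probe (adjusted p = 0.0357), with 0.28 and no call on the other. The efflux pump gene Abcc4 rose at both times of KBrO3 alone and of co-exposure on both probes, at 24 hr of co-exposure by 2.48 ± 0.08 or 5.6-fold on one (adjusted p = 4.07e-11) and by 1.36 ± 0.05 on the other (adjusted p = 1.51e-10). At 24 hr of BPA alone the other probe rose by 1.57 ± 0.23 (adjusted p = 0.01) and the first was not called (1.21, adjusted p = 0.17). Ptgr1, a reductase of prostaglandin metabolites, rose at 4 hr by 1.10 ± 0.07 after KBrO3 alone (adjusted p = 1.63e-08) and by 1.13 ± 0.07 under co-exposure (adjusted p = 1.08e-08).

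The other prostanoid receptors and Ptgfrn, a regulator of such a receptor, had 8 tested probes from 5 genes. At 24 hr 2 rose and 5 fell after KBrO3 alone, where 14.1% and 19.1% of all tested probes were called higher and lower. Under co-exposure 1 rose and 4 fell at 24 hr, where 15.9% and 23.5% were called. At 4 hr 1 rose and 2 fell after KBrO3 alone, and 1 rose and 3 fell under co-exposure. At 24 hr the difference of Ptgir, the prostacyclin receptor, was -4.06 ± 0.06 on probe 1 after KBrO3 alone (16.6-fold lower, adjusted p = 1.41e-13). Under co-exposure at 24 hr it was -3.67 ± 0.06 on probe 1 (12.8-fold lower, adjusted p = 1.48e-13). In the same 24 hr comparisons Ptgir probe 2 gave -1.10 ± 0.19 and -0.97 ± 0.19 (adjusted p = 0.000224 and 0.000548). At 4 hr the Ptgir probes differed: probe 1 fell by 1.14 ± 0.06 after KBrO3 alone and rose by 1.94 ± 0.19 with BPA alone (adjusted p = 0.00118), where probe 2 gave 0.58 and -0.46 with no call. Probe 1 also fell by 0.98 ± 0.06 at 4 hr of co-exposure (adjusted p = 7.63e-09), and at 24 hr of BPA alone it rose by 0.86 ± 0.19 (adjusted p = 0.0429). Tbxa2r, the thromboxane receptor, rose by 2.21 ± 0.16 at 4 hr after KBrO3 alone (adjusted p = 6.44e-08) and by 1.94 ± 0.16 under co-exposure (adjusted p = 1.98e-07), and by 1.20 at 24 hr after KBrO3 alone (adjusted p = 2.88e-05). Ptgfr, the prostaglandin F receptor, fell under co-exposure at 24 hr by 2.21 ± 0.27 on 1 probe (adjusted p = 1.43e-05) and by 0.65 ± 0.05 on the other (adjusted p = 8.34e-08), and after KBrO3 alone by 1.06 and 0.64 (adjusted p = 0.00461 and 1.2e-07). At 4 hr of BPA alone the second of these Ptgfr probes rose by 1.41 ± 0.23 (adjusted p = 0.0125) and the first was not called (0.85, adjusted p = 0.176).

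Among 9 tested probes of genes that release arachidonic acid, 0 were called at 4 hr after KBrO3 alone and 3 at 24 hr, all lower. Under co-exposure 2 were called at 4 hr, both higher, and 8 at 24 hr, 5 higher and 3 lower, where 15.9% and 23.5% of all tested probes were called. At an unadjusted p under 0.05 limma gave 0 higher and 3 lower for the first of these. Pla2g4a, the cytosolic phospholipase A2, rose by 0.88 ± 0.09 and 0.90 ± 0.10 on its probes at 4 hr of co-exposure (adjusted p = 1.63e-06 and 2.63e-06) and by 0.85 and 0.72 at 24 hr (adjusted p = 3.4e-06 and 2.83e-05). Pla2g12a, a secreted phospholipase, rose at 24 hr of co-exposure by 1.57 ± 0.11 and 1.56 ± 0.06 (adjusted p = 6.81e-08 and 5.96e-10) and at 24 hr of BPA alone by 2.07 ± 0.25 and 1.84 ± 0.26 (adjusted p = 0.00519 and 0.00859). Mgll, which releases arachidonic acid from a monoacylglycerol, fell at 24 hr on 1 probe at least 2.99-fold after KBrO3 alone (adjusted p = 8.78e-08) and at least 2.41-fold under co-exposure (adjusted p = 6.04e-07). Its other tested probe fell by 1.13 ± 0.17 (adjusted p = 9.68e-05) and 1.01 ± 0.17 (adjusted p = 0.000207), above background on 2 of 3 treated arrays each. Pla2g5, another secreted phospholipase and tested only in the BPA set, fell by 2.15 ± 0.22 at 24 hr of BPA alone (adjusted p = 0.00318) and by 1.03 at 4 hr (adjusted p = 0.0319).

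Among 8 tested probes of other prostanoid synthases, 2 were higher and 2 lower at 4 hr after KBrO3 alone, where 23.0% and 22.5% of all tested probes were called, and 3 were higher and 2 lower at 24 hr. Under co-exposure 3 were higher and 2 lower at 4 hr, and 3 higher and 0 lower at 24 hr (limma, with 4 and 1 at an unadjusted p under 0.05). Ptges3, a cytosolic prostaglandin E synthase and HSP90 cochaperone, rose by 0.83 ± 0.07 and 0.74 ± 0.07 on its probes at 4 hr after KBrO3 alone (adjusted p = 4.67e-07 and 1.12e-06) and by 0.77 and 0.81 under co-exposure (adjusted p = 8.58e-07 and 4.22e-07). Ptges2, another membrane form, rose by 0.92 ± 0.06 at 4 hr (adjusted p = 3.23e-08) and 0.97 ± 0.06 at 24 hr of co-exposure (adjusted p = 3.51e-08), and by 0.71 at 24 hr after KBrO3 alone (adjusted p = 8.37e-07). Akr1b3, an aldose reductase with prostaglandin F synthase activity, rose at 24 hr by 1.26 ± 0.05 and 0.95 ± 0.04 on its probes after KBrO3 alone (adjusted p = 3.04e-10 and 1.22e-09) and by 0.86 and 0.63 under co-exposure (adjusted p = 5.73e-09 and 3.45e-08). Cbr1, a carbonyl reductase, fell at 4 hr by 1.16 ± 0.04 under co-exposure (adjusted p = 1.19e-10) and by 0.78 ± 0.04 after KBrO3 alone (adjusted p = 5.57e-09).

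In the lipoxygenase and leukotriene branch, Alox5ap, the 5-lipoxygenase activating protein, fell at 24 hr by 2.09 ± 0.17 after KBrO3 alone (adjusted p = 4.29e-07) and by 2.90 ± 0.17 or 7.46-fold under co-exposure (adjusted p = 1.65e-08). The leukotriene B4 receptor Ltb4r1 rose at 24 hr by 1.16 ± 0.08 and 2.33 ± 0.08 in the same comparisons (adjusted p = 1.21e-07 and 1.54e-10). Ltb4r2, below background in untreated cells, was at least 3.76-fold higher at 4 hr of co-exposure, with no p because the co-exposed groups alone admitted it to the test. With BPA alone 3 of 11 tested probes fell at 24 hr and 0 rose (4 and 1 at an unadjusted p under 0.05 in limma), 2 of Alox12 (-1.42 ± 0.19 and -1.20 ± 0.22) and 1 of Alox5ap (-1.32 ± 0.26). Differences between treatments were not tested for these other genes.

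**Figure D5:**
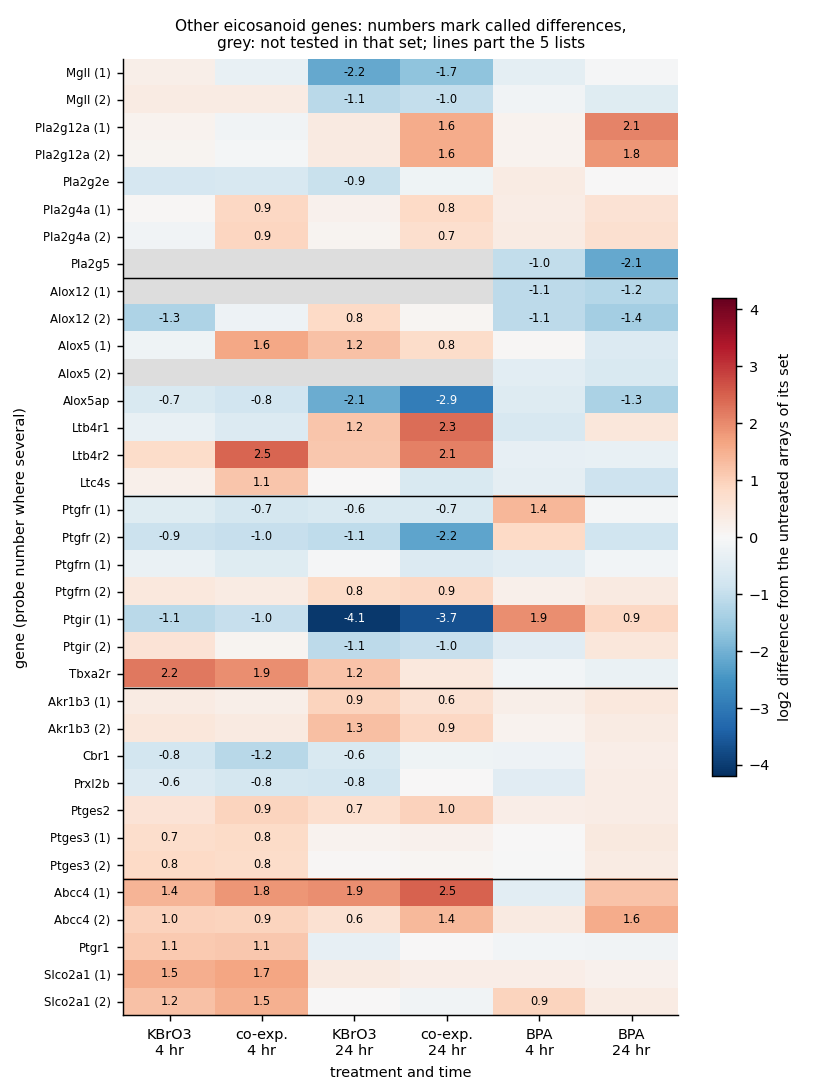
Log2 difference from the untreated arrays of the same set for the named other eicosanoid genes, by treatment and time; each row is a probe, colour gives the difference, numbers mark called differences, and grey marks probes not tested in that set. Slco2a1 was higher at 4 hr of both KBrO3 treatments (1.22 to 1.66), and Ptgir was lower at 24 hr (-4.06 and -3.67 on probe 1).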

How the data were processed

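Expression was measured on 24 Agilent 1-colour mouse arrays. The deposited scanner files hold signal intensity per spot, which the authors' Feature Extraction software (version 9.5.3.1 for the KBrO3 set and 12.0.0.7 for the BPA set, per the file headers) had background-subtracted. From these intensity values, control and outlier spots were set aside, the log2 of the processed signal was taken, the 75th percentile of each array was subtracted and spots of a probe were averaged. Signal over background limits the precision of dim probes.

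Probes well above background on all arrays of at least 1 group were fitted with limma 3.58.1 (R 4.3.3; lmFit and eBayes, 2-sided), all arrays of a set together, with Benjamini-Hochberg adjustment over all tested probes. The sets were never compared with each other. A probe below background throughout a group has only a bound ("at least N-fold"), set from the lowest signal among probes above background. The fit was tested on simulated data. The gene members and lists were chosen with earlier results of these data known. Named were all probes of the 10 genes and, of the other lists, at most 3 called genes per list and comparison. Other scalings (quantile, array median, normexp with offset 50), filters, weights, slide or replicate blocks, the Bonferroni rule of the methods (0.01), the deposited series table and leaving out each array were tried. In the BPA set normexp used median signals. Promoter sequences came from RefSeq (GRCm38.p6).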

Additional observations from a re-analysis of the deposited data

Results flagged for a closer look

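For 5 probes limma's test of the change from 4 to 24 hr in the difference between co-exposure and KBrO3 alone gave a call, with adjustment over all tested probes. The change was -0.97 on the single-spot Ptgs2 probe (adjusted p = 0.000462), beside 0.05 on the multi-spot Ptgs2 probe. The 4 others rest on groups below background throughout, where levels have only a bound, so their values describe signals and are given with no p. They were -1.74 on Hpgd probe 1 and -3.28 on Hpgd probe 2, both below background on all co-exposed arrays, with probe 2 below it also at 4 hr of KBrO3 alone. For Ptgds, below background at 4 hr of KBrO3 alone and 24 hr of co-exposure, the value was -2.28. For Ptger4, below it at 24 hr of co-exposure, the value was -0.71, and -0.55 and not called without replicate 1 of co-exposure at 24 hr. The Ptger4 change was also not called after quantile normalization (-0.15) or scaling to the array median (-0.40), and the Ptgds change was not called with slide as a random block (-1.38). After normexp limma called none of the 5 (3 of the 11 probes at an unadjusted p under 0.05). The single-spot Ptgs2 change then kept its size (-0.95), those of Hpgd (-1.09 and -0.79 on probes 1 and 2) and Ptgds (-0.63) were smaller, and that of Ptger4 changed sign (0.28). The co-exposed arrays at 4 hr share no slide with those of KBrO3 alone at 4 hr, so slide and co-exposure cannot be told apart there, and the part of the slides in these changes was not tested beyond the random block.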

How the results depend on the processing

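Of 1146 alternative values of the tested differences, 1051 kept their direction and side of the threshold, 52 lost a call, 19 gained one, 23 moved and 1 reversed, Ptger4's change of the co-exposure difference over time (-0.71, and 0.28 after normexp). With normexp the count of called probes was 0 for BPA 24 against 4 hr (main 4) and for the change over time (main 5), 3 for co-exposure against KBrO3 alone at 24 hr (main 6) and 1 at 4 hr (main 5). Those 0 counts came from limma with 5 and 3 probes at an unadjusted p under 0.05. Requiring signal above background on every array left fewer probes and gave 5 for each 24 against 4 hr change of the KBrO3 set (main 9), 1 for the change over time, and 2 at 24 hr and 2 at 4 hr for co-exposure against KBrO3 alone. The Bonferroni rule gave 0 for BPA 24 against 4 hr (limma, 8 at an unadjusted p under 0.05), 1 for the change over time and 1 for co-exposure at 4 hr. That last comparison gave 8 without a fold limit and 3 with slide as a random block. With slide as a fixed block the BPA count was 0 (limma, 7 at an unadjusted p under 0.05), and leaving out 1 array gave 2 to 5. For the other eicosanoid genes the BPA counts were 5 at 24 hr (main 8) and 2 at 4 hr (main 6) with the array median, and 0 at both times after normexp (limma, 7 and 3 at an unadjusted p under 0.05) and under Bonferroni (limma, 16 and 8). Bonferroni gave 12 for KBrO3 alone (main 21) and 13 for co-exposure (main 22) at 24 hr. The cause of these shifts was not tested. Scaling moved the median of all probes by -0.52 to 0.46 in the KBrO3 set and by -0.43 to 0.11 in the BPA set.

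Replicate numbers did not pair the arrays: deviations of same-numbered arrays correlated at -0.0294 on average (30 pairs, -0.212 to 0.106) and 0.00198 (9 pairs, -0.384 to 0.648). With a replicate block, 3 probes were called for BPA 24 against 4 hr, where the Ptger1 change of -0.91 was no longer called (adjusted p = 0.0876), and 2 in place of 5 for BPA 24 hr against untreated.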
